A study of Mus musculus with 6 samples.

Results

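The genes described here are 10 members of the integrated stress response and of the unfolded protein response of the endoplasmic reticulum (ER): Atf4, Atf5, Atf6, Ddit3, Xbp1, Hspa5, Trib3, Asns, Chac1 and Sesn2. They were taken by name, and each was found by its Entrez identifier among the 18089 genes of the table. RNA was sequenced from the ischemic gastrocnemius of 3 wild-type (WT) littermates and 3 Gpr174-/Y mice, all C57BL/6 males of 8 to 10 weeks, 7 days after hindlimb ischemia (HLI), so every library comes from injured muscle and none from a resting limb. GPR174 is a G protein-coupled receptor encoded on the X chromosome, and the Gpr174-/Y mice lacked it in the whole body, not in 1 cell type. The comparison asks how its loss changes the transcripts of ischemic muscle.

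The integrated stress response starts with kinases that phosphorylate the translation initiation factor eIF2. Overall protein synthesis then falls while translation of ATF4, a transcription factor for amino acid supply and stress genes, is favoured, so that Atf4 mRNA and ATF4 protein need not move together. The unfolded protein response of the ER shares this arm through the kinase PERK and adds 2 others: ATF6, a membrane-bound factor that is cut free, and IRE1, which splices Xbp1 mRNA. Hspa5 encodes BiP, the most studied ER chaperone and a standard readout of the latter arms, whereas Ddit3 (CHOP), Trib3, Chac1, Sesn2 and Asns are known ATF4 targets. Muscle fibres, macrophages and collagen-secreting fibroblasts all run these programmes.

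Promoter sequences are shown first, because the Hspa5 and Asns promoters hold the elements through which the ER and the amino acid arms are known to act. They were read from RefSeq windows on GRCm38.p6, which span 250 bases before to 50 bases after each transcription start; 9 of the 10 members had a window and Atf6 had none. The ER stress response element was searched as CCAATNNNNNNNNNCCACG and the CCAAT enhancer binding protein-activating transcription factor response element (CARE), which ATF4 binds, as TGATGNAA, both on either strand. Only exact matches were counted, so variants of an element that differ in a fixed letter are missed, here and in the counts below. The 250 bases upstream of the Hspa5 start are printed 5′ to 3′ in the direction of transcription. The fixed letters of its exact match to the ER stress response element are in capitals.
Hspa5 (chr2:34771840-34772089, plus strand): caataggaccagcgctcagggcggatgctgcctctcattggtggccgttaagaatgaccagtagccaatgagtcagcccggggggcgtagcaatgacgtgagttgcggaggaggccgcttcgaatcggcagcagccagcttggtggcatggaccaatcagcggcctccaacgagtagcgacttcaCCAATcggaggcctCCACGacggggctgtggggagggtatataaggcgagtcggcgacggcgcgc
The element lies 65 to 47 bases before the start. It was found in 0.119% of 32851 promoter windows, and in those of 37 of 27025 genes (0.137%). Of the 18 genes with a window in the list of other ER chaperones and folding enzymes described below, 7 held it. Their matches are shown with 15 bases on either side, in the direction of transcription, the matched letters again in capitals and, for Calr, Ero1b and Creld2, on the opposite strand. Hsp90b1 held a second match, which is not printed.
Calr (chr8:84847060-84847108, minus strand): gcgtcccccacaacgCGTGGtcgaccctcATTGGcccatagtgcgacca
Hsp90b1 (chr10:86705623-86705671, minus strand): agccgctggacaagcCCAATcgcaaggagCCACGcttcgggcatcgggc
Canx (chr11:50325785-50325833, minus strand): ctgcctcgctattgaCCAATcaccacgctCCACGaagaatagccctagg
Pdia6 (chr12:17266476-17266524, plus strand): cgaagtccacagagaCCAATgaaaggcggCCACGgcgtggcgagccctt
Ero1b (chr13:12565667-12565715, plus strand): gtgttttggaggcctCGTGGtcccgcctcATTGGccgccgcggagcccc
Dnajc3 (chr14:118937812-118937860, plus strand): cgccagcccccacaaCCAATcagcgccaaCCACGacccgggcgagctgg
Creld2 (chr15:88819505-88819553, plus strand): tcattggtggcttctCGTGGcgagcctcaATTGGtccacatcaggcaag
CARE was common, present in 3.97% of the windows and in 1219 genes (4.51%), and 3 members held it. In Asns it lay 23 to 16 bases before the start and in Chac1 193 to 186 bases before it, on the opposite strand.
Asns (chr6:7693210-7693247, minus strand): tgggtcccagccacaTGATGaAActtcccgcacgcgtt
Chac1 (chr2:119351034-119351071, plus strand): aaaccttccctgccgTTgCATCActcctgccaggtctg
In Trib3 the match lay 14 to 21 bases inside the transcript. The third element searched, TGACGTGG, was in 0.676% of windows and in none of the members. A match of letters is a description of the window, not a binding site.

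The counts of Gpr174 itself were 8, 2 and 5 in the WT libraries (replicates 1, 2 and 3 in this order, here and below) against 1, 0 and 0 in those of Gpr174-/Y muscle, which matches the labels (edgeR without its filter on low counts, adjusted p = 0.0176). The libraries held between 18417077 and 19394469 counts. Replicate 2 lay between replicates 1 and 3 for 86.0% of 3859 genes with a mean of at least 50 CPM (a gene's counts relative to the scaled total of its library) in the WT group and for 76.5% in the Gpr174-/Y group, as it did for 6 and 7 of the 10 members. With replicates 1 and 3 of each group alone, edgeR called no gene at an adjusted p under 0.05 (5026 genes and 5 members had an unadjusted p under 0.05, and the smallest adjusted p was 0.0542), so no call below was kept in that smaller fit. The labels number the replicates without tying each to its own mouse, and p-values measure the spread between these samples, which may be technical. The defining markers of mature muscle were present in every library: the 21 genes of that list summed to between 218920 and 268190 TPM (a level corrected for transcript length, with the same sum in every library) in WT and between 120060 and 132180 in Gpr174-/Y muscle. In bulk tissue, fewer cells of a type and less RNA per cell cannot be told apart.

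The ER chaperone Hspa5 and the asparagine synthetase gene Asns were higher in Gpr174-/Y muscle. At TMM scaling Ddit3, Chac1 and Atf5 were lower, but none of them was called in TPM. Atf4 itself was level at TMM scaling, though called higher with total counts and in TPM. In edgeR's quasi-likelihood test with TMM scaling, which sets the libraries to a common level of the bulk of genes, 8 of the 10 members had an adjusted p under 0.05, where 54.6% of the 14395 genes tested did. All 10 members passed the filter on low counts. Of the 8, 5 were higher (27% of all genes) and 3 lower (27.6%). With all 6 libraries and TMM or DESeq2 scaling, no member passed a second threshold, a change of more than 1 on the log2 scale, whereas 8.28% of all genes passed both in edgeR with TMM. With total counts Hspa5 and Asns passed both. The groups did not overlap for the same number in each direction, 5 above and 3 below, where 65.6% of all genes did not overlap, 33.1% with Gpr174-/Y above and 32.4% with it below. The members' median log2 fold change was 0.14, beside 0.00 over all genes.

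**Figure D1:**
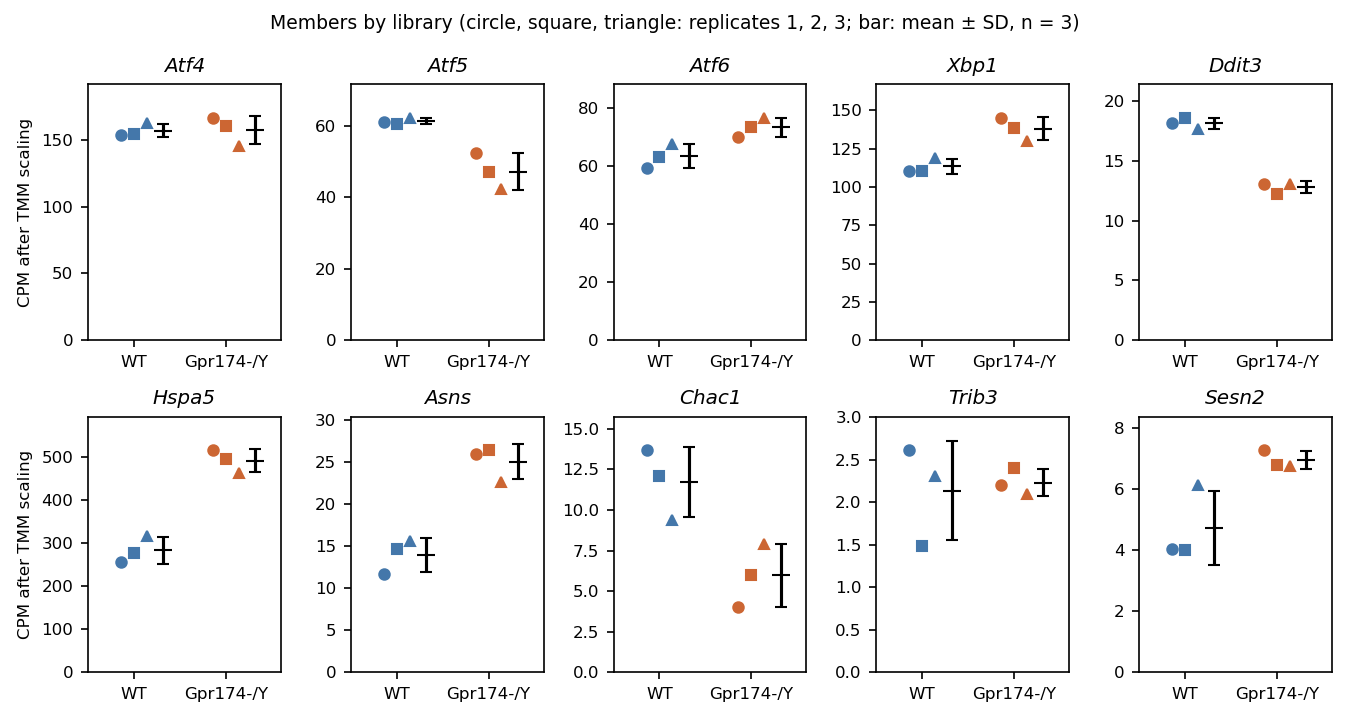
CPM after TMM scaling (y axes, from 0) of the 10 genes in each library, WT at left and Gpr174-/Y at right of each panel, with circles, squares and triangles for replicates 1, 2 and 3 and bars for the mean and SD of n = 3. Hspa5 and Asns lie above and Ddit3 and Chac1 below WT without overlap, while Atf4 and Trib3 overlap.

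Scaling sets the zero point of these differences. With total counts in place of TMM log2 fold changes moved up by 0.27 at the median (median over all genes 0.28, against 0.11 once the mature fibre list was taken out of the totals). On log2(TPM + 1) with limma the median was 0.36. Under these scalings Chac1, Ddit3 and Atf5 remained the 3 lowest members and Sesn2, Hspa5 and Asns the 3 highest. The calls changed more: Atf5 lost its call with total counts. On log2(TPM + 1) Chac1, Ddit3 and Atf5 all lost theirs, so 0 members were called lower there. All 3 lower calls thus depend on the scaling, as given beside each gene.

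**Figure D2:**
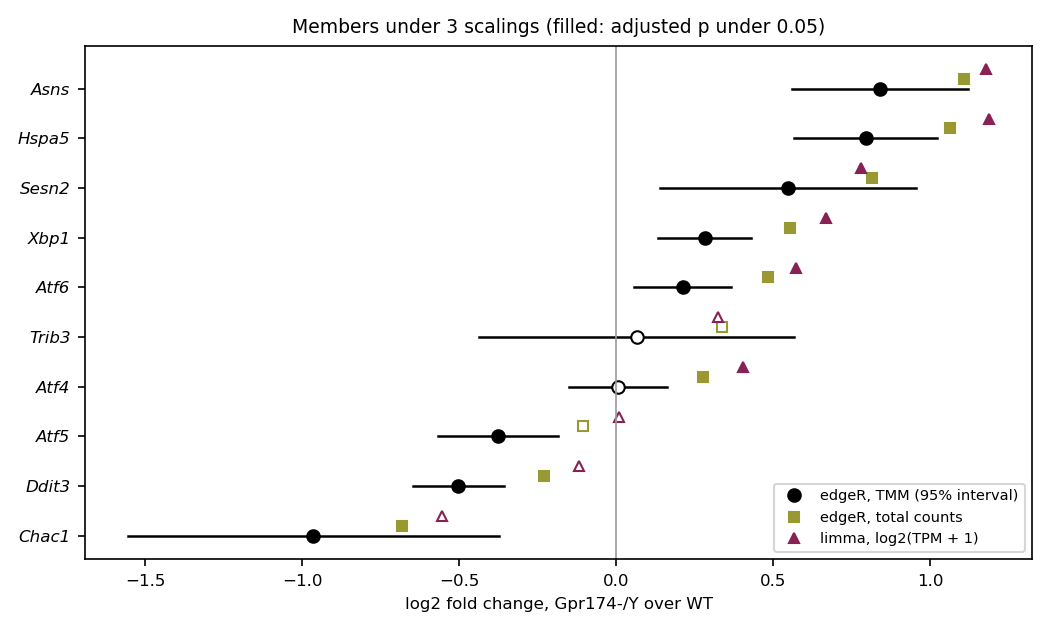
Log2 fold change of Gpr174-/Y over WT (x axis) for the 10 genes, from the edgeR fit with TMM scaling (circles with 95% intervals), from edgeR with total counts (squares) and from limma on log2(TPM + 1) (triangles), filled where the adjusted p was under 0.05. Hspa5 and Asns are highest in all 3, and Chac1 is lowest in all 3.

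Among the transcription factors, Atf4, the central factor of the integrated stress response, was at 154, 155 and 162 CPM in WT and at 166, 160 and 146 CPM in Gpr174-/Y muscle. The groups overlapped, and the log2 fold change was 0.00 with a 95% interval from -0.15 to 0.16 (adjusted p = 0.958). With total counts it was 0.28 (adjusted p = 0.0148), close to the median of all genes at that scale, and on log2(TPM + 1) it was 0.40 (adjusted p = 0.00350), beside a median of 0.36. Atf5, a related factor that also acts on mitochondrial stress genes, was at 61.3, 60.5 and 62.3 CPM in WT and at 52.4, 47.1 and 42.3 CPM in Gpr174-/Y muscle. All Gpr174-/Y libraries were lower, by a log2 fold change of -0.38 (SE 0.08, adjusted p = 0.00758), which turned to 0.01 and was not called on log2(TPM + 1) (adjusted p = 0.924).

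Ddit3 encodes CHOP, the factor tied to cell death under lasting ER stress. It was at 18.2, 18.6 and 17.7 CPM in WT and at 13.1, 12.2 and 13.1 CPM in Gpr174-/Y muscle, with no overlap and a spread within each group that was small beside the gap. The log2 fold change was -0.50 (SE 0.06, adjusted p = 0.00128), it was negative under all 18 alternatives, and it was called without any 1 library but not on log2(TPM + 1) (-0.12, adjusted p = 0.133).

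Atf6, the membrane-bound factor, was at 59.5, 63.2 and 67.8 CPM in WT and at 70.1, 73.7 and 76.7 CPM in Gpr174-/Y muscle. The highest WT library was close to the lowest Gpr174-/Y library, and the log2 fold change was 0.21 (SE 0.07, adjusted p = 0.0300). That call was lost without WT replicate 1 (adjusted p = 0.0639), WT replicate 2 (0.0988), Gpr174-/Y replicate 2 (0.0947) or Gpr174-/Y replicate 3 (0.0904). Xbp1, whose mRNA IRE1 splices, was at 111, 111 and 119 CPM in WT and at 145, 139 and 130 CPM in Gpr174-/Y muscle. It was higher in every Gpr174-/Y library, by a log2 fold change of 0.28 (SE 0.06, adjusted p = 0.00886).

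Hspa5 was the most abundant member. It was at 256, 279 and 317 CPM in WT and at 517, 496 and 464 CPM in Gpr174-/Y muscle, a 1.73-fold difference. Its log2 fold change was 0.79 with a 95% interval from 0.57 to 1.02 (SE 0.10, adjusted p = 0.00128). The value was between 0.73 and 1.19 over 18 alternatives, called in 17 of them.

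Of the ATF4 targets among the 10 members, Asns rose most. It was at 11.6, 14.6 and 15.6 CPM in WT and at 26.0, 26.4 and 22.7 CPM in Gpr174-/Y muscle, 1.79-fold higher with no overlap (log2 fold change 0.84, SE 0.12, adjusted p = 0.00189). Sesn2, which encodes a leucine-sensing restraint on mTORC1, was at 4.05, 3.99 and 6.13 CPM in WT and at 7.26, 6.78 and 6.75 CPM in Gpr174-/Y muscle. WT replicate 3 stood nearer to the Gpr174-/Y libraries than to the other WT libraries, and the log2 fold change of 0.55 (SE 0.17, adjusted p = 0.0319) kept its call in only 1 of the 6 fits that left out 1 library, the one without WT replicate 3 (highest adjusted p = 0.109).

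Chac1, a glutathione-degrading enzyme, had the largest difference of the called members at TMM scaling, though not with total counts or in TPM, and the largest standard error. It was at 13.7, 12.1 and 9.38 CPM in WT and at 4.01, 6.03 and 7.91 CPM in Gpr174-/Y muscle. The highest Gpr174-/Y library was below the lowest WT library, and the log2 fold change was -0.96 with a 95% interval from -1.55 to -0.37 (adjusted p = 0.0157). Without WT replicate 2 or Gpr174-/Y replicate 2 the adjusted p was 0.0567 and 0.0524, and on log2(TPM + 1) the value was -0.56 (adjusted p = 0.0701). Trib3, a pseudokinase gene induced by ATF4 and CHOP, had 25 to 51 counts in a library. It was at 2.61, 1.49 and 2.30 CPM in WT and at 2.198, 2.40 and 2.09 CPM in Gpr174-/Y muscle, and the interval of its log2 fold change, from -0.44 to 0.57, covers both a fall and a rise (adjusted p = 0.813).

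At this scaling Asns and Sesn2 were called higher, Ddit3 and Chac1 lower, and Trib3 was not called. A ratio of counts within a library does not depend on scaling, and for a pair of members it is given as a description with no test, since each pair was chosen for 1 higher and 1 lower gene. The ratio of Hspa5 to Ddit3 counts was 14.1, 14.96 and 17.9 in WT and 39.5, 40.5 and 35.4 in Gpr174-/Y muscle. The ratio of Asns to Chac1 counts was 0.85, 1.21 and 1.66 in WT and 6.48, 4.38 and 2.87 in Gpr174-/Y muscle. Each upper gene lay above WT and each lower gene below it without overlap, so neither ratio could overlap between the groups. Their separation is therefore no further result.

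Per length, in TPM, Hspa5 (196 ± 31.3, mean ± SD, n = 3) and Atf4 (178 ± 15.5) were the most abundant members in WT muscle and their ranges overlapped. Xbp1 (88.4 ± 8.18), Atf5 (62.2 ± 3.81) and Ddit3 (28.9 ± 1.75) followed, each below the last without overlap. Atf6, Chac1 and Asns, at 14.7, 13.1 and 12.5 TPM, overlapped one another in turn, and Sesn2 (3.12) and Trib3 (1.82) were lowest. In Gpr174-/Y muscle Hspa5 (443 ± 9.14 TPM) stood above Atf4 (235 ± 9.73) without overlap. Asns (29.3 ± 1.68 TPM) lay above Ddit3 (26.5 ± 0.953), the reverse of WT muscle, and Chac1 (8.88 ± 3.17) overlapped Sesn2 (5.95 ± 0.129). On this scale 7 members were above WT without overlap, as were 64% of the tested genes, and Atf5, Ddit3 and Chac1 overlapped it. No member was below WT without overlap, where 11.5% of the tested genes were.

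The IRE1 arm leaves a mark on Xbp1 mRNA itself, since the spliced transcript lacks a short segment. The table gives transcripts by RefSeq identifier only. NM_001271730.1 is taken here as the spliced form and NM_013842.3 as the unspliced form from general knowledge of RefSeq, which no file used here states. The former held 1.49%, 0% and 9.57% of Xbp1 counts in WT and 6.81%, 7.21% and 18.1% in Gpr174-/Y muscle. The groups overlapped, since WT replicate 3 was above 2 of the Gpr174-/Y libraries. The means were 3.69% ± 5.15 and 10.7% ± 6.43 (SD, n = 3), a difference of 7.03 percentage points (2-sided exact permutation p = 0.3). The forms share nearly all of their sequence, so the estimated split rests on few reads and the 0 is an estimate, not a count. Of Hspa5 counts, the minor transcript NM_022310.3 took 6.77%, 9.73% and 10.5% in WT and 4.97%, 4.52% and 5.67% in Gpr174-/Y muscle, with no overlap (exact permutation p = 0.1, the smallest possible). This split is an estimate as well. NM_001163434.1 held a mean of 91.0% of Hspa5 counts in WT and 94.9% in Gpr174-/Y muscle, so most of any rise would lie on it. The share of NM_001287180.1 in Atf4 counts was 56.0% ± 3.71 in WT and 60.1% ± 3.57 in Gpr174-/Y muscle (SD, n = 3, exact permutation p = 0.2). The transcript shares of Atf6 and Ddit3 overlapped between groups, and the other 5 members had 1 listed transcript each.

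**Figure D3:**
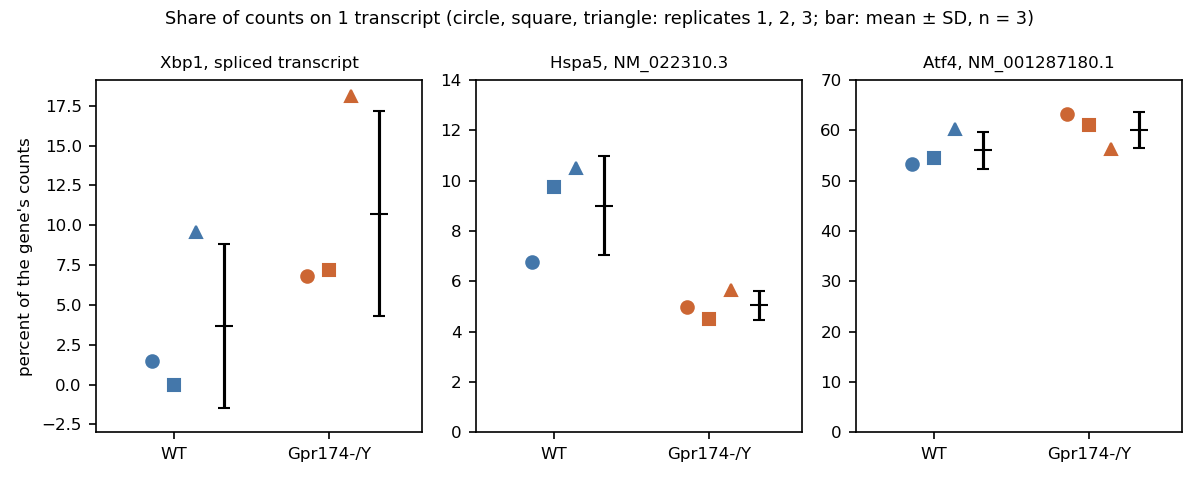
Percent of a gene's estimated counts on 1 of its transcripts (y axes) in each WT and Gpr174-/Y library, with bars for the mean and SD of n = 3: the Xbp1 transcript taken as spliced, the minor Hspa5 transcript NM_022310.3 and the Atf4 transcript NM_001287180.1. The Hspa5 shares do not overlap between groups, while those of Xbp1 and Atf4 do.

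The other genes of the same responses were read from 9 lists by role, 105 of whose 107 genes were tested. Of these, 55 were higher, 17 lower and 33 not called (68.6% called, against 54.6% of all genes), with a median log2 fold change of 0.30. Over all genes 27% were higher and 27.6% lower, and the counts of each list below are to be read beside these shares. With total counts 79 were higher and 3 lower, and on log2(TPM + 1) 87 and 3. Both thresholds were passed by 6 higher genes and 1 lower gene, where 3.45% and 4.84% of all genes passed them.

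The ER chaperones and folding enzymes moved together with Hspa5. Of 20, 19 were higher and none lower (95% called), with a median log2 fold change of 0.58. Sdf2l1, a co-chaperone of BiP, rose most: it was at 7.03, 7.80 and 8.88 CPM in WT and at 19.1, 17.0 and 14.6 CPM in Gpr174-/Y muscle (log2 fold change 1.09, SE 0.13, adjusted p = 0.00128). The exception, named after its value was seen, was Dnajb9, a known XBP1 target that restrains IRE1. Dnajb9 was at 43.0, 46.4 and 47.9 CPM in WT and at 44.6, 41.8 and 37.9 CPM in Gpr174-/Y muscle (log2 fold change -0.14, adjusted p = 0.147), although on the TPM scale its Gpr174-/Y libraries were above WT. The 7 list members whose promoters hold the ER stress response element, Calr, Hsp90b1, Canx, Pdia6, Ero1b, Dnajc3 and Creld2 (also named after their values were seen), rose by log2 fold changes between 0.35 and 0.72. The median of the whole list, 0.58, lies within that range, and Sdf2l1, which is not among the 7, rose more. Over all 20 tested genes with the element, 13 were higher, 2 lower and 5 not called (75% called, median 0.33). These 20 include Hspa5, the 7 genes just named and Syvn1 of the next list. That share therefore repeats genes counted elsewhere and says nothing separate about the element. Over the 326 tested genes with CARE 103 were higher, 85 lower and 138 not called (median 0.02), and the 57.7% called lies near the 54.6% of all genes. Of 113 tested genes with the third element, TGACGTGG, 37 were higher, 32 lower and 44 not called (61.1% called, median -0.01).

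Of 14 tested genes of ER-associated degradation and translocation, 9 were higher and 1 lower (71.4% called, median 0.35). Edem1, which routes misfolded glycoproteins to degradation, was at 37.6, 44.4 and 51.0 CPM in WT and at 78.2, 76.6 and 73.7 CPM in Gpr174-/Y muscle (log2 fold change 0.78, SE 0.11, adjusted p = 0.00173). Herpud1, another ER stress-induced gene of this list, was the lower one, at 107, 103 and 94.1 CPM against 87.7, 80.9 and 75.7 CPM (log2 fold change -0.32, SE 0.08, adjusted p = 0.0121), but in TPM its Gpr174-/Y libraries were above WT. Its promoter holds CARE. So does that of Txndc5 in the chaperone list, named after its value was seen, which was higher (log2 fold change 0.78). Another window of Txndc5 holds the third element searched.

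Among the sensors of the responses and their proteases, 5 of 9 were higher and 1 was lower (66.7% called, median 0.24). Ern1, which encodes IRE1, rose from 11.0, 11.2 and 11.0 CPM in WT to 14.4, 14.6 and 15.9 CPM in Gpr174-/Y muscle (log2 fold change 0.44, SE 0.07, adjusted p = 0.00243). Eif2ak1, the heme-regulated eIF2 kinase, was lower (log2 fold change -0.21, SE 0.05, adjusted p = 0.0133), though higher in TPM without overlap. Of 11 genes of eIF2, its exchange factor, its phosphatase subunits and relays, 6 were lower and 2 higher under TMM scaling (72.7% called, median -0.21). In TPM only 2 of those 6 were below WT without overlap, 2 overlapped and 2 were above it. The list's summed TPM was 378 to 395 in WT and 403 to 408 in Gpr174-/Y muscle. Dele1, which relays mitochondrial stress to the heme-regulated kinase, was at 111, 100.3 and 81.4 CPM in WT and at 50.6, 50.9 and 49.7 CPM in Gpr174-/Y muscle. Its fall (log2 fold change -0.95, SE 0.11, adjusted p = 0.00120) was also seen in TPM without overlap. Impact, an inhibitor of the amino acid-sensing kinase GCN2, was the largest rise there (log2 fold change 0.32, SE 0.07, adjusted p = 0.00988).

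Of 7 other stress transcription factors, 2 were higher and 2 lower (57.1% called, near the 54.6% of all genes, median 0.05). Creb3l1, a membrane-bound factor of collagen-secreting cells, was at 45.3, 50.9 and 61.7 CPM in WT and at 92.8, 88.8 and 82.8 CPM in Gpr174-/Y muscle (log2 fold change 0.74, SE 0.11, adjusted p = 0.00241). Cebpb, a dimer partner of CHOP, was at 71.1, 71.2 and 72.9 CPM against 47.0, 51.0 and 55.5 CPM (log2 fold change -0.49, SE 0.07, adjusted p = 0.00179), and its TPM overlapped between groups. The mitochondrial chaperones and proteases showed 3 lower and 1 higher of 5 (80% called, median -0.18). Hspa9, the mitochondrial counterpart of BiP, was at 414, 398 and 379.7 CPM in WT and at 309, 301 and 294 CPM in Gpr174-/Y muscle (log2 fold change -0.40, SE 0.06, adjusted p = 0.00262), with overlapping TPM, whereas the co-chaperonin gene Hspe1 was higher (log2 fold change 0.31, SE 0.08, adjusted p = 0.0135).

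Amino acid synthesis and transport, the classical ATF4 programme to which Asns belongs, was higher for 11 of 16 tested genes and lower for 1 (75% called, median 0.66). Slc7a11, the cystine importer, had only 3, 6 and 6 counts in WT and 19, 21 and 25 in Gpr174-/Y muscle (log2 fold change 1.76, SE 0.28, adjusted p = 0.00265). The leucine transporter subunit gene Slc7a5 (log2 fold change 1.41), Slc1a4 (1.29) and the serine synthesis gene Psat1 (1.11), named after their values were seen, also passed both thresholds. Slc7a5 was at 12.9, 18.2 and 24.3 CPM in WT and at 54.2, 49.5 and 43.4 CPM in Gpr174-/Y muscle. Psph, the last enzyme of serine synthesis, was lower (log2 fold change -0.46, SE 0.11, adjusted p = 0.0117), with overlapping TPM. The cytosolic tRNA synthetases, which ATF4 is also known to induce, were mostly not called: 2 of 11 were higher and 2 lower (36.4% called, median 0.03). Gars (log2 fold change 0.35, SE 0.06, adjusted p = 0.00379) rose most, and Eprs (log2 fold change -0.21, SE 0.05, adjusted p = 0.00910) fell most but was higher in TPM without overlap.

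Of 12 other ATF4 and CHOP targets, 4 were higher and 1 lower (41.7% called, below the 54.6% of all genes, median 0.17). Fgf21, a secreted hormone that stressed muscle is known to release, had 7, 9 and 9 counts in WT and 58, 51 and 36 in Gpr174-/Y muscle (log2 fold change 2.19, SE 0.27, adjusted p = 0.00139). Vldlr, a lipoprotein receptor gene, was at 128, 108 and 72.8 CPM in WT and at 24.7, 35.4 and 50.1 CPM in Gpr174-/Y muscle (log2 fold change -1.49, SE 0.29, adjusted p = 0.00588). Both directions held in TPM without overlap.

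**Figure D4:**
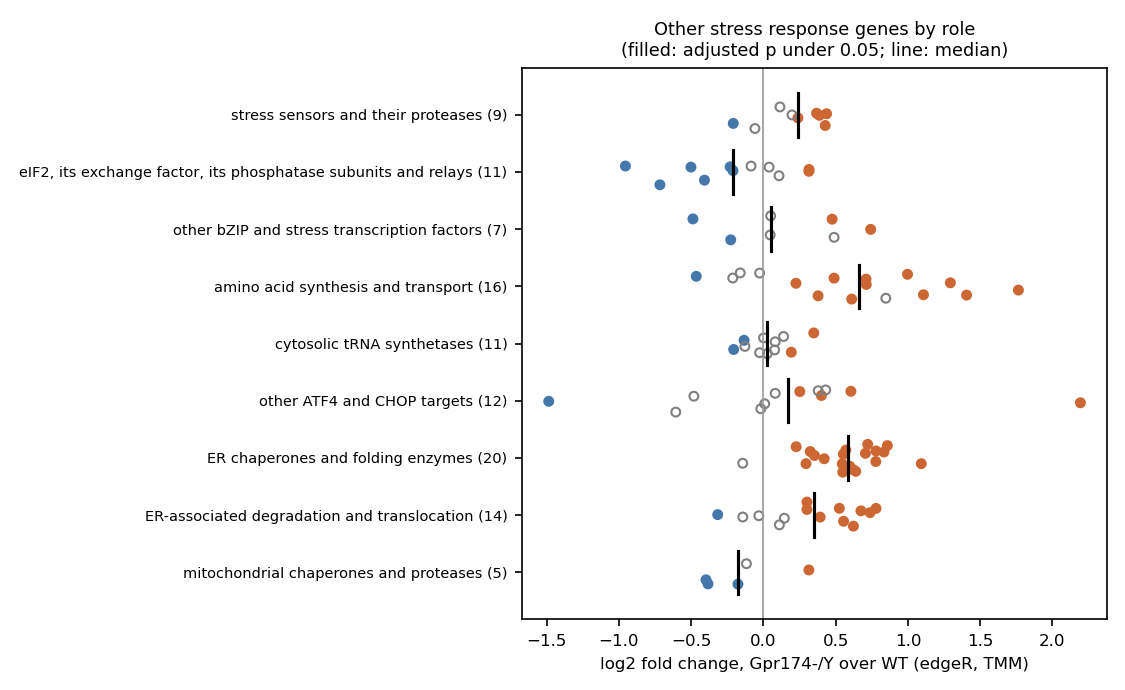
Log2 fold change of Gpr174-/Y over WT (x axis) for the tested genes of 9 lists by role (rows, with the number tested), filled in orange where higher and in blue where lower with an adjusted p under 0.05 and open otherwise; black lines are list medians. The chaperone and amino acid lists have the highest medians, 0.58 and 0.66, and the eIF2 list the lowest, -0.21.

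Markers of the cells that make up the tissue moved in the same comparison, in which 27% of all genes tested were called higher and 27.6% lower. All 21 mature fibre markers were lower in Gpr174-/Y muscle, and 9 of 12 regenerating fibre markers were higher (summed TPM 6311 to 7667 in WT and 9301 to 11089 in Gpr174-/Y). Of 12 macrophage markers 11 were higher (2194 to 3819 against 6869 to 7364 TPM). The fibroblast list, 5 higher and 3 lower of 10, summed to between 6123 and 9908 TPM in WT and between 16489 and 16685 TPM in Gpr174-/Y muscle. All 10 endothelial markers were lower (647 to 677 against 506 to 542 TPM). Plasma cells, which hold much ER, were scarce by their markers, 3 of 6 tested being higher, at 22.3 to 29.4 TPM in WT and 49.0 to 50.3 TPM in Gpr174-/Y muscle. The 8 neutrophil markers summed to between 16.3 and 20.8 TPM in WT and between 26.4 and 31.7 TPM in Gpr174-/Y muscle. Of the 2 that were tested, 1 was higher and 1 lower, and the defining neutrophil markers Ly6g and Elane had at most 3 counts in any library. The part of these markers in the results for the 10 genes was not tested.

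WT replicate 3 had the lowest mature fibre sum of the WT libraries and the highest macrophage and fibroblast sums, and it was also the WT library nearest to the Gpr174-/Y mean for 7 of the 8 called members. Gpr174-/Y replicate 3 was the Gpr174-/Y library nearest to the WT mean for 6 of the 8, although its mature fibre sum (120060 TPM) was the lowest and its macrophage sum (7364 TPM) the highest of all libraries. Neither count was taken over all genes, so neither is a result about the members. EdgeR with TMM called 9165 of all genes without WT replicate 3 and 6748 without Gpr174-/Y replicate 3, against 7863 with all 6 libraries. Hspa5, for example, was at 167, 190 and 229 TPM in WT, beside fibroblast sums of 6123, 7632 and 9908 TPM. Within the Gpr174-/Y group Hspa5 was at 451, 445 and 433 TPM beside fibroblast sums of 16685, 16620 and 16489 TPM, a narrow range in both. Over the 2 groups the levels of Hspa5 and of the fibroblast and macrophage lists did not overlap. In TPM 64% of the tested genes were likewise above WT without overlap.

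**Figure D5:**
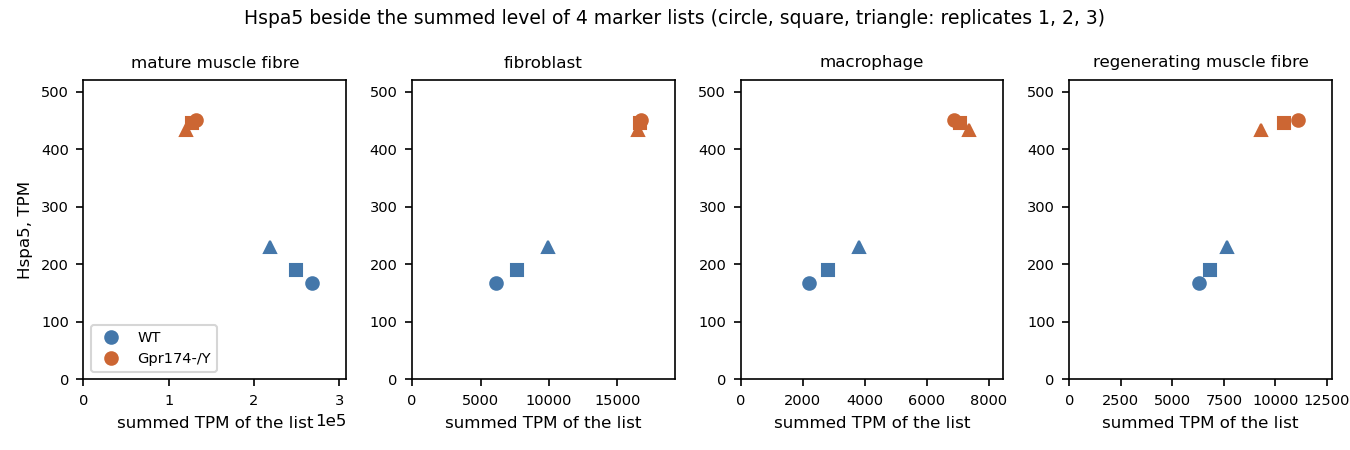
Hspa5 in TPM (y axis) against the summed TPM of the mature fibre, fibroblast, macrophage and regenerating fibre marker lists (x axes) in each WT (blue) and Gpr174-/Y (orange) library, with circles, squares and triangles for replicates 1, 2 and 3. WT replicate 3 lies nearest to the Gpr174-/Y libraries in all 4 panels, and the groups are apart on both axes. In TPM 64% of the tested genes were above WT without overlap.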

How the data were processed

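RNA of ischemic gastrocnemius from 3 WT and 3 Gpr174-/Y mice was sequenced, on a BGISEQ-500 according to the study's methods. The sample labels instead name an Illumina TruSeq kit. The authors deposited expected counts, that is estimated read numbers per RefSeq transcript without normalization, with FPKM and TPM of the same libraries. The deposited TPM values, scaled for length, to the same sum in every library, were summed per gene, while the deposited FPKM values and the authors' group means were not used. The submitters' processing notes name HISAT2 2.0.4, Bowtie2 2.2.5, RSEM 1.2.12 and GRCm39, and strand use is not given in the sources used here. Samples were grouped by title.

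Expected counts were summed by Entrez identifier and rounded, giving 18089 genes. edgeR 4.0.16 (TMM, filterByExpr, robust quasi-likelihood F-test, R 4.3.3) was fitted to all 6 libraries, with Benjamini-Hochberg adjustment over 14395 genes, and thresholds of 0.05 on the adjusted p and of 1 on the size of the log2 fold change. Adjusted p-values are from this fit unless another is named. Transcript shares were compared with 2-sided exact permutation tests (scipy 1.17.1). The fits were tested on simulated data. The libraries held 18417077 to 19394469 counts, and the scarcest member, Trib3, rests on 25 to 51 counts.

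The members, lists and tests were chosen with earlier results of these data known, and the motifs and ratios after their values were seen. Named genes are the 10 members, Gpr174 and, from each list by role, the gene with the largest rise and that with the largest fall at an adjusted p under 0.05; others are marked in the text. Of 108 listed names, 107 matched the table. Promoter windows are from RefSeq on GRCm38.p6, another build than that of the files, and were matched by Entrez identifier. Alternatives were DESeq2 1.42.0 (size factors and Wald test), upper-quartile and total-count scaling, total counts without the mature fibre list, no filter or at least 10 counts in every library, limma 3.58.1 on log2(TPM + 1) and log2(TPM + 0.1) for genes at 1 TPM in 3 libraries and without that filter, a replicate block, each library left out, and replicates 1 and 3 only.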

Additional observations from a re-analysis of the deposited data

How the results depend on the processing

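With 3 libraries a group, few reads on Trib3 and most genes shifted by the choice of scaling, small differences could not be resolved. The number of members called was 8 under every scaling of the counts (with Atf4 gained and Atf5 lost at total counts), with DESeq2 and under every filter, 6 in the limma fits on TPM, and 5 to 8 with each library left out, lowest without WT replicate 2 (5) or Gpr174-/Y replicate 2 (5). The number past both thresholds was 2 with total counts and 2 in each of the 3 TPM fits (Hspa5 and Asns), and 0 to 1 with each library left out (Chac1, without WT replicate 3 or Gpr174-/Y replicate 3). Of the genes of the 9 lists, 57 to 79 were called with each library left out. With replicates 1 and 3 only, 0 members, 0 genes of the lists (53 at an unadjusted p under 0.05) and 0 of all genes were called. Without WT replicate 3, 1826 genes in all passed both thresholds, against 1192. The cause was not tested.

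The log2 fold change of Atf4 turned negative with the DESeq2 Wald test (-0.000018), without WT replicate 1 (-0.00233), WT replicate 2 (-0.00111), Gpr174-/Y replicate 1 (-0.0365) or Gpr174-/Y replicate 2 (-0.00661), and with replicates 1 and 3 only (-0.0188), the highest value with a library left out being 0.0584, whereas it was 0.403 to 0.404 and called in the 3 TPM fits. That of Atf5 was 0.00847, 0.00858 and 0.00847 in the TPM fits. That of Trib3 was -0.133 without WT replicate 2, up to 0.235 with another library left out, and -0.195 with replicates 1 and 3 only. Atf6, Xbp1, Hspa5, Asns and Sesn2 were higher, and Ddit3 and Chac1 lower, under all 18 alternatives. Of all genes called, 49.5% were higher, against 78.4% with total counts and 85.7% on log2(TPM + 1).

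Same-numbered libraries are of different genotypes, and the labels do not say whether they share a batch. Their deviations from the group means had correlations of -0.026, -0.011 and -0.037. Such values cannot decide whether the numbers pair the libraries, since replicates 1 to 3 differ in a graded way within each group. With the replicate block 6 members were called, Chac1 (adjusted p = 0.0547) and Sesn2 (0.0559) not, and 68 genes of the lists. The difference in the share of spliced Xbp1 was 3.32 to 9.97 percentage points with each library left out. It was 7.03 as the mean of same-numbered pairs (replicate block, exact permutation p = 0.25, the smallest possible with so few pairs).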
